A study of Mus musculus with 2 samples.

Results

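The cells described here were Müller glia of the mouse retina in which few transcripts came from immediate-early genes. They were chosen by a rule on single-cell counts of unique molecular identifiers (UMIs, one per captured transcript). Cells with at least 800 UMIs, at most 20% mitochondrial UMIs, at least 0.5% of UMIs from Glul, Rlbp1 and Slc1a3 together and at most 1 UMI of Rpe65 were taken as Müller glia. Of these 2581 gated cells, the 1290 whose share of UMIs from Fos, Fosb, Jun, Junb, Ier2, Egr1 and Cyr61 lay below the pooled median were kept as low cells, and the 1291 others are called high cells. The table held 19562 cells in all, 7169 from the control library and 12393 from the STZ library. The low cells numbered 654 in control and 636 in STZ.

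The study set retinas of diabetic mice beside retinas of healthy mice. Male mice, given as C57BL/6 or C57BL/6J, received streptozotocin (STZ), a toxin of insulin-producing beta cells, into the peritoneum at 55 mg/kg when 3 to 5 weeks old. Animals with blood glucose above 300 mg/dL counted as diabetic and stayed hyperglycaemic for 25 weeks. The control library is labelled untreated, and no vehicle injection or age is given for it. Each library pooled 3 retinas and was made with 10x Chromium 3′ version 3 chemistry at 1000 cells per µl. With 1 pooled library per condition there was no replicate check, so no test between conditions was made. Intervals below are 95% intervals for counting error only.

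Müller glia span the retina and support its neurons. They turn glutamate into glutamine through glutamine synthetase (Glul), take glutamate up through Slc1a3, carry retinoids on Rlbp1 and move water and potassium through Aqp4 and Kcnj10. Immediate-early genes encode transcription factors and feedback regulators that are switched on within minutes of a stimulus, cell dissociation among them, without new protein synthesis. Metallothioneins are small cysteine-rich proteins that bind zinc and copper, and their genes are induced through metal response elements.

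The metallothionein genes carried some of the highest STZ to control ratios in the low cells, so their promoters are shown first. Each window runs from 250 bases before to 50 bases after the start given by RefSeq (build GRCm38.p6, chromosome 8, plus strand). Capitals mark matches to the metal response element core, TGCACNC or TGCGCNC, searched on both strands. The windows are chr8:94178839-94179138 for Mt1, chr8:94172368-94172667 for Mt2 and chr8:94152357-94152656 for Mt3.
Mt1: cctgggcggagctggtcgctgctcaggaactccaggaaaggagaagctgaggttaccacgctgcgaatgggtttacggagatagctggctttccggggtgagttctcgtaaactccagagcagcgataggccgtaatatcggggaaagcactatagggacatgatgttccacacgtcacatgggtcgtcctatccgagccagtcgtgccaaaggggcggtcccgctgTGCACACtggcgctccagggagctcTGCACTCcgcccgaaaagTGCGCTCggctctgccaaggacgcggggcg
Mt2: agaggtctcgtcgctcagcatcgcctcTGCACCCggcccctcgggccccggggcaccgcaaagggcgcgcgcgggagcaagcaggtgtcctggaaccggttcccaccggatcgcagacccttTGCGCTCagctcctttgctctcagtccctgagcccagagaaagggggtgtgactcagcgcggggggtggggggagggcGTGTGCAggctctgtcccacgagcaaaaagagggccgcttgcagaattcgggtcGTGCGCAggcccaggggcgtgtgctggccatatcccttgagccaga
Mt3: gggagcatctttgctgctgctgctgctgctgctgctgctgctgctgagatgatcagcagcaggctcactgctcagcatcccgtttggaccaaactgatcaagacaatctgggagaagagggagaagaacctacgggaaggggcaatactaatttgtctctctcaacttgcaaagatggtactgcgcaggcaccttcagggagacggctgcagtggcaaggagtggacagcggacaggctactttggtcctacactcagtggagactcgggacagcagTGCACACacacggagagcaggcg
Mt1 held 3 matches, Mt2 held 4 and Mt3 held 1. Of these, 2 in Mt1, 1 in Mt2 and 1 in Mt3 lay after the start. Of 32851 promoter windows of the same length, 25.7% held at least 1 match, 1.97% at least 3 and 0.518% at least 4. A match is a run of letters and was not tested as a binding site.

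The identity of the low cells was checked against markers that the gate did not use. Levels are given as CPM, the UMIs of a gene per 1000000 UMIs of the cells summed, and a pair of values gives control first and STZ second. Aqp4 was at 1458 and 1416 CPM in the low cells, against 16.0 and 26.6 CPM in kept cells outside the gate. A UMI of Aqp4 was found in 94.2% of control and 78.5% of STZ low cells. With each cell thinned to 800 UMIs, which left out 0 cells, these shares were 63.9% and 55.5%, against 1.30% and 2.90% outside the gate. Of 20 Müller glia markers outside the gate, all 20 were measured. Of these, 0 were at least 1.5-fold higher in STZ and 1 was at least 1.5-fold lower, beside 5.29% and 4.49% of all measured genes. That one was the transporter gene Abca8a, at 1448 (control) and 915 CPM (STZ), a log2 ratio of -0.66. The ratio was -0.53 in cells with at most 10% mitochondrial UMIs. With an estimate of free RNA, taken from cells outside the gate, subtracted, it was -0.06. By Aqp4, the label held for most of the cells. A shorter set of markers outside the gate was summed in each cell, namely Aqp4, Kcnj10, Apoe, Clu, Car14, Dkk3, Sox9, Abca8a and Crym. It made up under 1% of UMIs in 15 control low cells (2.29%) and 90 STZ low cells (14.2%). The gate genes differed little between libraries. Glul was at 9991 (control) and 9401 CPM (STZ), Rlbp1 at 3316 and 2882 CPM and Slc1a3 at 1333 and 1155 CPM.

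Depth and RNA from other cells differed between the libraries and touch every comparison below. STZ low cells held a median of 3286 UMIs and 1722 genes, against 4973 UMIs and 2290 genes in control. Cells with under 1500 UMIs made up 9.33% of control and 30.7% of STZ low cells. The median mitochondrial share was 7.39% in control and 10.1% in STZ. In all, the low cells held 3069066 UMIs in control and 2193835 in STZ. A set of 21 barcodes occurred in both libraries, and 2 control and 1 STZ low cells carried such a barcode. Without cells of these barcodes, 361 genes were higher and 305 lower in STZ, where all low cells gave 360 and 306. Leaving out so few cells could hardly change these counts.

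The rule split the gated cells of both libraries into near-equal parts, but the shape of the split differed. Low cells made up 51.3% (48.5 to 54.1) of gated control cells and 48.7% (45.9 to 51.5) of gated STZ cells. The cut lay at 0.428% of UMIs, with 0.427% the highest share below it. In control, 44 gated cells (3.45%) lay within 1.25-fold of the cut, and in STZ 128 (9.80%) did, so the low class is a range of a continuous measure, more so in STZ. No UMI of any of the 7 genes was found in 160 control low cells (24.5%) and 166 STZ low cells (26.1%). The median share was 0.0430% in control and 0.0634% in STZ low cells, against 1.69% and 1.11% in high cells. Cells outside the gate had 0.0311% and 0.0400%, close to the low cells.

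**Figure D1:**
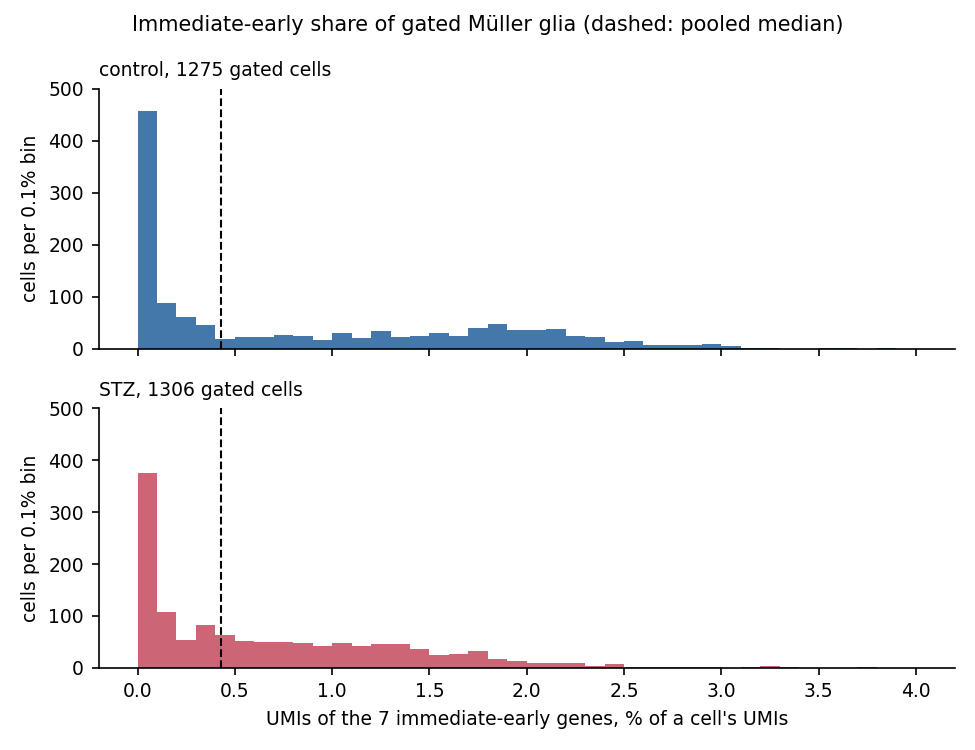
Histograms of the share of each gated cell's UMIs from the 7 immediate-early genes (x axis, percent, in bins of 0.1%) for the 1275 control and 1306 STZ cells, with the pooled median as a dashed line. The control cells pile up near 0 with a second broad hump between about 1 and 2.5%, while the STZ cells also fill the space around the cut, where 128 STZ and 44 control cells lie within 1.25-fold of it.

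The share of low cells also moved with depth. Among gated cells with 800 to 1500 UMIs, 80.3% (69.5 to 88.5) of control and 55.9% (50.5 to 61.2) of STZ cells were low. Between 1500 and 3000 UMIs the shares were 81.6% (71.9 to 89.1) and 60% (52.4 to 67.2). Between 3000 and 5000 UMIs the shares were 72.6% (66.9 to 77.8) and 68.8% (62.0 to 74.98), and at 5000 UMIs or more 38.5% (35.2 to 41.9) and 33.4% (29.5 to 37.4). In each of the 4 bands the STZ share was the lower one, and the libraries lay farthest apart in the shallowest cells. With the share taken from cells thinned to 800 UMIs, 51.2% of control and 50.8% of STZ cells were low.

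The 7 genes of the rule are given as a description, since they chose the cells. In low cells Fos was at 160.6 (control) and 216 CPM (STZ), Jun at 329 and 269 CPM, and Egr1 at 126 and 153 CPM. At 800 UMIs per cell, Fos was seen in 11.9% of control and 16.7% of STZ low cells, against 11.3% and 17.0% of cells outside the gate, where the unthinned shares in low cells were 29.8% and 33.6%. Jun was seen in 16.5% and 18.2% of low cells at that depth, against 7.38% and 10.4% outside the gate. None of the 7 differed by 1.5-fold between the libraries, with log2 ratios of STZ to control from -0.29 (Jun) to 0.45 (Junb).

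Immediate-early and early stress genes outside the rule followed the split closely. Of 19 of them measured in the low and high cells, 17 were at least 1.5-fold lower in the low cells of both libraries. Among all 6230 genes measured there, 84 (1.35%) were lower in both libraries, and nothing is read from the difference, since the cells were split on correlated counts. The largest differences by the naming rule were in Nr4a1, Zfp36, Klf4, Dusp1 and Socs3. Dusp1, a phosphatase that switches off MAP kinases, was at 89.9 CPM in control low cells and 1168 CPM in control high cells, and at 62.5 and 858 CPM in STZ. Zfp36, which triggers decay of AU-rich messages, was at 17.6 CPM in control low cells and 432 CPM in control high cells, and at 37.4 and 593 CPM in STZ. Klf4, a zinc finger transcription factor, was at 11.1 and 379 CPM in control and at 14.6 and 213 CPM in STZ. Nr4a1, an orphan nuclear receptor, was at 3.91 and 63.3 CPM in control and at 2.73 and 50.3 CPM in STZ. Socs3, a feedback inhibitor of cytokine receptors, was at 5.54 and 200.5 CPM in control and at 19.1 and 245 CPM in STZ.

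Within that low level, 4 of 14 measured genes of the same list were at least 1.5-fold higher in STZ low cells and 0 were lower. Over all 6808 genes measured between the libraries, 360 (5.29%) were at least 1.5-fold higher and 306 (4.49%) at least 1.5-fold lower in STZ low cells, with a median log2 ratio of -0.02. The 4 were Gadd45g, Zfp36, Nfkbia and Cebpb. Gadd45g, a stress-induced growth arrest gene, was at 13.7 (control) and 47.9 CPM (STZ) (3.497-fold, 2.42 to 5.13). Outside the gate it was at 107 and 109 CPM, above the low cells in both libraries. Nfkbia, the inhibitor of NF-kappaB, was at 27.0 and 57.0 CPM (2.11-fold, 1.58 to 2.81), with a log2 ratio of 0.40 when free RNA was subtracted. Cebpb was 1.56-fold higher (1.17 to 2.09) and fell under 1.5-fold in 8 of the other settings tried. Zfp36 was 2.12-fold higher (1.49 to 3.05), and its log2 ratio was 0.38 in cells with at most 10% mitochondrial UMIs and -0.96 with free RNA subtracted. In the low cells nearest the cut, with an immediate-early share of 0.1% or more, Zfp36 was at 27.8 (control) and 77.6 CPM (STZ). In those with none of the 7 genes it was at 5.18 and 7.09 CPM. The STZ cells nearest the cut were shallow, with a median of 1788 UMIs, and the median share of neuronal markers in a cell was 1.23%. In control these medians were 5442 UMIs and 0.180%. The part of this in the ratios was not tested.

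Some genes of Notch signalling and glial identity also differed between low and high cells. Of 23 measured, 7 were at least 1.5-fold lower in the low cells of both libraries, namely Hes1, Hey2, Sox9, Id1, Id2, Id3 and Zfp36l1, and 0 were higher, beside 1.35% of all genes. The median of the list was -0.06 in control and -0.29 in STZ on the log2 scale, and these cells too were split on the same counts. Hes1, a repressor induced by Notch, was at 610.0 CPM in control low cells and 1870 CPM in control high cells, and at 501 and 1578 CPM in STZ. Sox9, a transcription factor that Müller glia need, was at 505 and 1068 CPM in control and at 475 and 828 CPM in STZ. Id1, a helix-loop-helix inhibitor downstream of BMP signals, was at 193 and 549.8 CPM in control and at 128 and 304 CPM in STZ. In every one of these 3 genes the low and high levels stood farther apart than the libraries did.

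Few genes were clearly higher in low than in high cells. By 1.5-fold in both libraries, 104 of 6230 genes (1.67%) were higher, but the median gene lay 0.21 above 0 in control and 0.10 in STZ on the log2 scale, and with that shift removed 19 were higher. Syt10, a calcium sensor of vesicle fusion, was at 59.9 CPM in control low cells and 28.3 CPM in control high cells, and at 62.5 and 30.1 CPM in STZ. It was at 0.318 (control) and 1.23 CPM (STZ) outside the gate. The lipid transporter gene Abca6 was at 80.2 and 41.0 CPM in control and at 80.2 and 47.8 CPM in STZ. The unnamed gene CT025619.1 was at 51.8 and 29.4 CPM in control and at 46.0 and 24.1 CPM in STZ. Between the libraries Syt10 and Abca6 differed by 1.04-fold or less in low cells.

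Igfbp5 and S100b, also higher in low cells, came from a handful of cells. Igfbp5 was at 54.7 (control) and 34.2 CPM (STZ) low cells, against 4.30 and 12.3 CPM in high cells, and had a UMI in 24 low cells of each library. S100b, a calcium-binding protein of astrocytes, was at 68.4 and 65.2 CPM in low and at 22.3 and 34.8 CPM in high cells. In each library 6 low cells (0.917% in control, 0.943% in STZ) had at least 2 of the astrocyte markers Pax2, S100b, Igfbp5 and Gfap. They held 88.1% of the Igfbp5 UMIs in control and 72.0% in STZ, and 65.7% and 64.3% of those of S100b. Aqp4 was at 0 CPM in the 6 control cells and at 499.5 CPM in the 6 STZ cells. Without them the log2 ratio of Igfbp5 between STZ and control turned from -0.68 to 0.56.

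Between the libraries, metallothionein genes were higher in STZ low cells. Mt1 (chr8:94179082-94180327) was at 604 (control) and 2019 CPM (STZ), 3.34-fold higher (3.17 to 3.53). Mt2 (chr8:94172664-94173568) was at 64.5 CPM and 360.1 CPM, 5.58-fold higher (4.77 to 6.56). Mt3 (chr8:94152607-94154146), a form best known from the brain, was at 182 CPM and 327 CPM, 1.79-fold higher (1.60 to 2.01). The windows printed above held 4 motif matches for Mt2, 3 for Mt1 and 1 for Mt3, and a link of these numbers to the ratios was not tested. The numbers depend on the start used. The RefSeq window of Mt2 ends at 94172667, close to the GENCODE start of the gene at 94172664. The fourth measured gene of the list, the zinc importer gene Slc39a10, was at 67.4 and 53.3 CPM. A UMI of Mt1 was found in 79.0% of control and 89.3% of STZ low cells. At 800 UMIs per cell the shares were 33.6% (30.0 to 37.4) and 68.7% (65.0 to 72.3), against 20.1% and 41.2% outside the gate.

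High cells gave nearly the same metallothionein ratios as low cells. The log2 ratio of Mt1 was 1.74 in low and 1.70 in high cells, that of Mt2 2.48 and 2.56, and that of Mt3 0.84 and 0.81. Across bands of depth, Mt1 ranged from 516 to 655 CPM in control low cells and from 1765 to 2110 CPM in STZ low cells, with no overlap. Across 4 bins of the immediate-early share below the cut, Mt1 ranged from 490.0 to 669 CPM in control and from 1929 to 2231 CPM in STZ. Outside the gate Mt1 was also higher in STZ, at 401 (control) and 1104 CPM (STZ), both below the low cells.

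**Figure D2:**
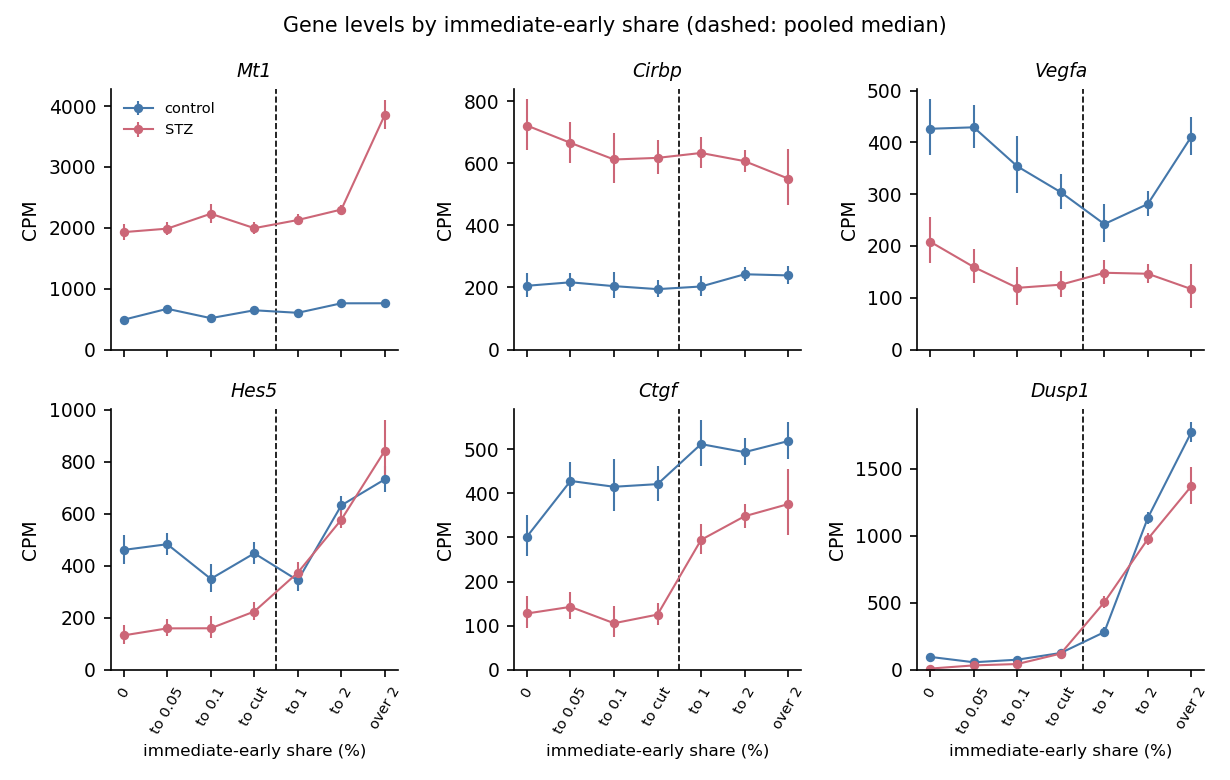
CPM (y axis, bars are 95% counting intervals) of 6 genes in gated cells binned by immediate-early share (x axis, percent), control in blue and STZ in red, with the pooled median as a dashed line between low and high bins. Mt1 and Cirbp stay apart across the low bins, while Hes5 and Ctgf of the STZ library are low below the cut and higher above it.

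The cold-inducible RNA-binding genes Cirbp and Rbm3 were higher as well, in low cells and elsewhere. Cirbp was at 205 (control) and 649.5 CPM (STZ) low cells, 3.16-fold higher (2.88 to 3.48), and at 290.0 and 901 CPM outside the gate. Rbm3 was at 148 and 309 CPM, 2.09-fold higher (1.85 to 2.35), and at 141 and 435 CPM outside the gate. With an estimate of free RNA taken from the outside cells subtracted, the log2 ratio of Cirbp was 0.90 and that of Rbm3 0.09. Of the other 12 genes of the list, Srsf5 was at least 1.5-fold higher (349 and 541 CPM) and Tra2a at least 1.5-fold lower (228 and 142 CPM). Both encode splicing factors, and each came under 1.5-fold in 2 of the other settings.

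Other genes at the top of the STZ side were less abundant. Arrdc2, an arrestin-domain gene, was at 21.5 (control) and 67.9 CPM (STZ) low cells, 3.16-fold higher (2.35 to 4.29), and at 2.80 and 7.20 CPM outside the gate. Apoc1, a lipoprotein component, was at 43.0 and 98.9 CPM, 2.30-fold higher (1.84 to 2.88). Dcxr, a reductase of sugars and carbonyls, was at 27.4 and 58.4 CPM, 2.13-fold higher (1.61 to 2.84). The naming rule asked for a level in the higher library no less than outside the gate, so their lower levels outside were partly set by it. Lrrn3, a leucine-rich repeat membrane protein gene, was 2.03-fold higher (1.498 to 2.75), with a log2 ratio of 1.02 in low and 1.06 in high cells. Rasl11a, a Ras-like GTPase gene, was at 23.1 (control) and 50.6 CPM (STZ) low cells, 2.19-fold higher (1.61 to 2.99), with 53.1 and 66.2 CPM in high cells. Pofut2, which adds fucose to proteins, was 2.03-fold higher (1.53 to 2.72), and Pkia, an inhibitor of protein kinase A, 1.94-fold (1.501 to 2.52). Hist1h1e, a linker histone gene with near-identical copies and so uncertain, was 1.95-fold higher (1.502 to 2.55).

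**Figure D3:**
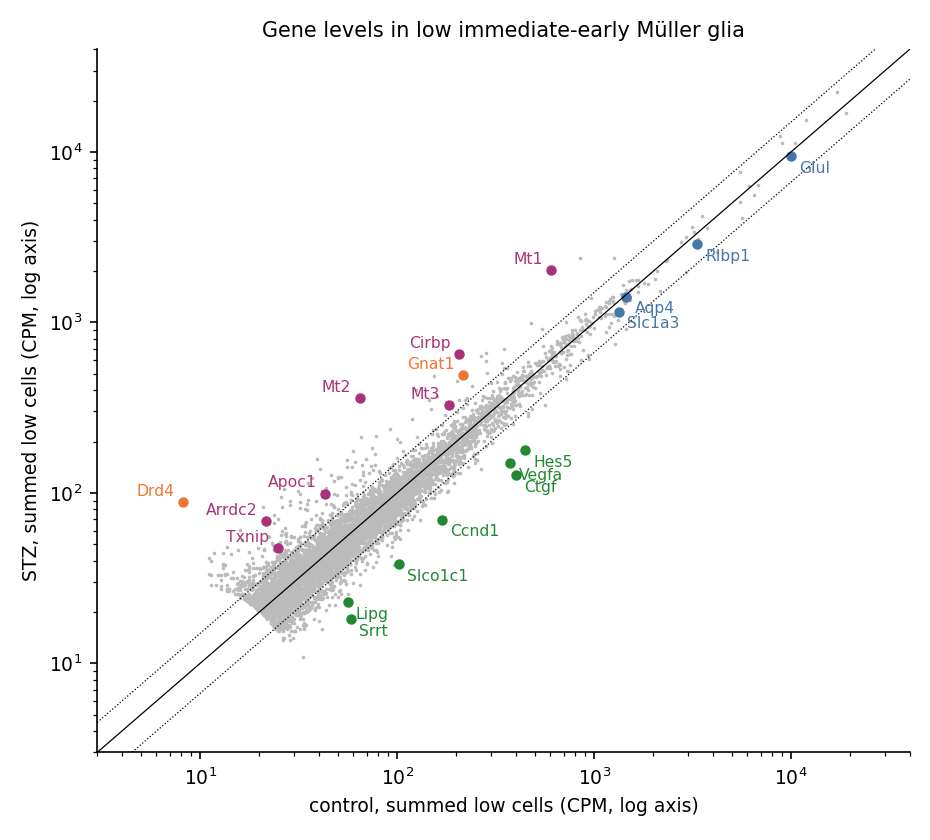
Summed CPM of each gene in STZ low cells (y axis, log) against control low cells (x axis, log). Grey points are measured genes, coloured points the named ones, the solid line marks equality and the dotted lines 1.5-fold. Mt1, Mt2 and Cirbp lie above the upper line, Hes5, Vegfa and Ctgf below the lower line, the gate genes and Aqp4 between them, and the photoreceptor genes Gnat1 and Drd4 (orange) above.

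Of the 10 genes named for the lowest STZ to control ratios, Hes5, Ctgf and Vegfa were the most abundant in control. Vegfa, the vascular endothelial growth factor that Müller glia secrete, was at 376 (control) and 149.5 CPM (STZ) low cells, 2.51-fold lower (2.22 to 2.85). It was at 313 and 144 CPM in high cells and at 128 and 105 CPM outside the gate. Its level in control lay above that in STZ in all 4 depth bands, at 352 to 498 CPM against 143 to 174 CPM. At 800 UMIs, Vegfa was seen in 23.1% of control and 9.28% of STZ low cells (64.7% and 32.5% unthinned), and in 9.84% and 7.90% outside the gate. The STZ low cells thus lay close to the outside cells in this gene.

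Hes5 and Ctgf stood farther apart between the libraries below the cut than above it. Hes5, a Notch-induced repressor of neuronal fate, was at 446 (control) and 178 CPM (STZ) low cells, 2.51-fold lower (2.24 to 2.82). In high cells it was at 608 and 534.0 CPM, with a log2 ratio of -0.19 (-0.28 to -0.10) against -1.33 (-1.49 to -1.16) in low cells. Within the STZ library, Hes5 went from 132 CPM in cells without the 7 immediate-early genes to 842 CPM in cells above 2%. In control it went from 461 to 732 CPM between the same bins, but without a steady rise. In the bin from the cut to 1%, Hes5 was at 343.7 (control) and 373.5 CPM (STZ). Ctgf, a matricellular target of the YAP co-activator, was at 399.8 (control) and 127 CPM (STZ) low cells, 3.14-fold lower (2.76 to 3.59), and at 504 and 333 CPM in high cells. Its log2 ratio was -1.65 (-1.84 to -1.46) in low and -0.60 (-0.71 to -0.49) in high cells. The counting intervals of both genes do not overlap between low and high cells, and a test over samples of that difference could not be made with 1 library each. Hes5 and Ctgf lay at 9.74 to 21.6 CPM outside the gate. In the deepest low cells, at 5000 UMIs or more, Hes5 was at 412 and 157 CPM and Ctgf at 433 and 136 CPM.

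The other genes named on the lower side were lower in high cells too, most of them by 1.5-fold. Over all 306 lower genes, 68 were at least 1.5-fold lower in high cells as well and 43 were above 1-fold there. Of the 360 higher genes, 204 were also at least 1.5-fold higher in high cells. The median log2 ratio of the measured genes was -0.02 in low and 0.08 in high cells. The share of all measured genes that passed 1.5-fold in high cells is not given here, so the overlaps are not compared. Ccnd1, the cyclin of G1 progression, was at 168 (control) and 69.7 CPM (STZ) low cells, 2.41-fold lower (2.01 to 2.91), with a log2 ratio of -0.83 in high cells. Slco1c1, a transporter of thyroid hormone, was at 102 and 38.3 CPM, 2.66-fold lower (2.08 to 3.42). Lipg, the endothelial lipase gene, was at 56.0 and 22.8 CPM, 2.46-fold lower (1.78 to 3.44). Srrt, which acts in RNA processing at the cap, was at 58.3 and 18.2 CPM, 3.20-fold lower (2.26 to 4.63), from 179 and 40 UMIs. Its log2 ratio was -0.55 in high cells, under the 1.5-fold used here. Tshz3, a zinc finger transcription factor gene, was 2.26-fold lower (1.69 to 3.05), Txnl4a, a spliceosome component, 2.21-fold (1.62 to 3.04), and Hexim1, an inhibitor of the elongation factor P-TEFb, 2.16-fold (1.71 to 2.76).

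**Figure D4:**
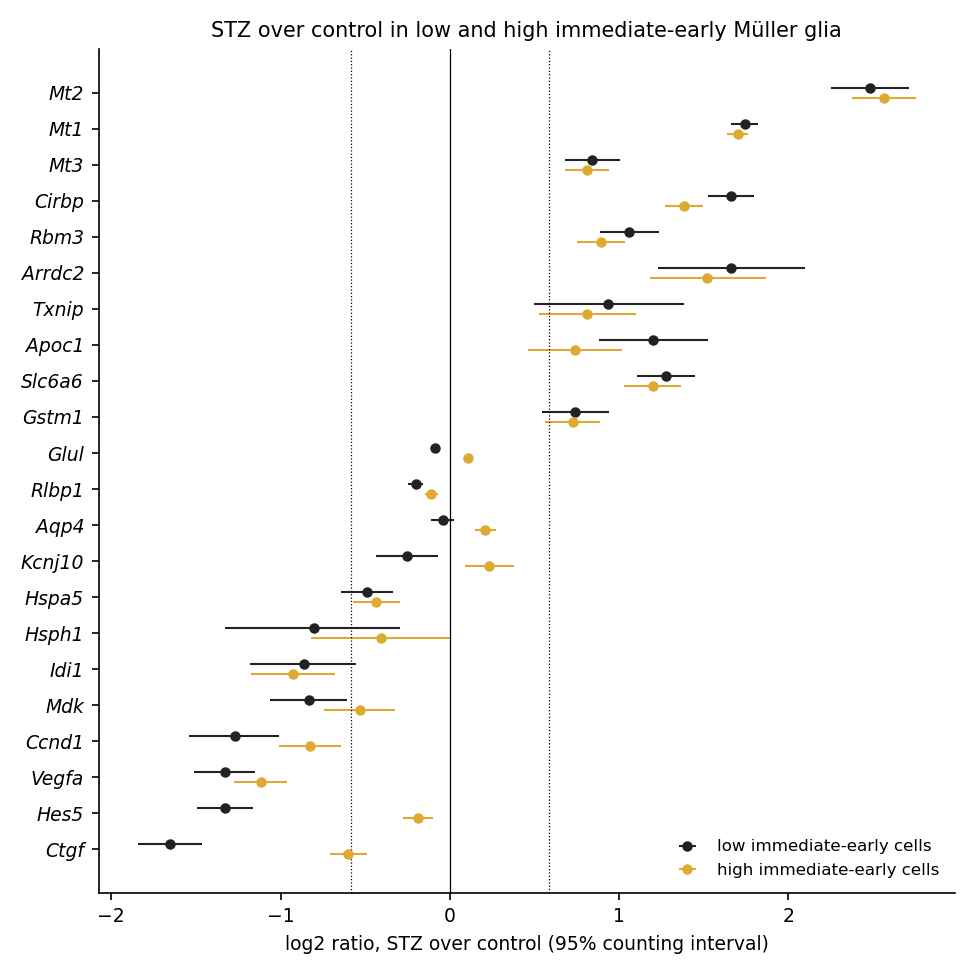
Log2 ratio of STZ to control (x axis, bars are 95% counting intervals) of 22 genes in low cells (black) and high cells (gold), with dotted lines at 1.5-fold. Metallothionein genes sit at like values in both classes, whereas Hes5 is at -1.33 in low and -0.19 in high cells and Ctgf at -1.65 and -0.60.

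Genes of the main Müller glia tasks differed little. Of 13 measured genes of glutamate and amino acid handling, 2 were at least 1.5-fold higher and 0 lower (median log2 ratio 0.20). Over all measured genes, 5.29% were higher and 4.49% lower. The taurine transporter gene Slc6a6 was at 145 (control) and 350.1 CPM (STZ) low cells, but at 1090 and 1563 CPM outside the gate. The aminotransferase gene Got1 was at 28.0 and 46.0 CPM, and its log2 ratio was 0.40 in cells of at least 3000 UMIs. Of 10 genes of potassium, water and pH handling, 0 passed 1.5-fold either way (median 0.08). There the potassium channel gene Kcnj10 was at 214 and 180 CPM. Of 6 genes of retinoid handling, 0 passed (median 0.08), with Rdh10 at 190.0 and 229 CPM.

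Gliosis genes, which mark reactive glia, did not stand out in low cells. Of 27 listed, 14 were measured, 0 of these passed 1.5-fold either way, and the median was 0.03. Beside this, 5.29% of all measured genes were higher and 4.49% lower, so a count of 0 in lists this short says little. Gfap, the intermediate filament gene that reactive Müller glia can switch on, was at 27.7 CPM in control (85 UMIs) and 24.2 CPM in STZ (53 UMIs). The 6 cells with astrocyte markers held 78.8% of the Gfap UMIs in control and 75.5% in STZ, and the remaining low cells were at 5.94 and 6.01 CPM. In high cells Gfap had 4 UMIs in control and 74 in STZ. Of 4 complement genes, 0 passed in low cells, with C4b at 26.4 and 19.6 CPM. Of 9 matrix and adhesion genes, 0 passed, with Sparc at 1500 and 1745 CPM. Of 15 interferon and antigen presentation genes, 1 was higher and 0 lower. That gene, Ifit1, was at 13.0 and 36.5 CPM, 2.80-fold higher (1.89 to 4.20), with its UMIs in 25 low cells of each library.

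Some sterol synthesis genes were lower in STZ low cells. All 13 measured genes of cholesterol synthesis and uptake had a log2 ratio below 0 (median -0.37), and 4 were at least 1.5-fold lower, among them Idi1, Fdft1 and Cyp51, beside 4.49% of all genes. Idi1, which makes an isoprenoid precursor, was at 100.4 (control) and 55.2 CPM (STZ), 1.82-fold lower (1.47 to 2.26). Fdft1, the squalene synthase gene, was at 54.1 and 30.5 CPM, and Cyp51, which removes a methyl group from lanosterol, at 53.4 and 31.0 CPM. The median of the same list in high cells was -0.58. Of 9 genes of lipid transport, 1 passed, the peptidase gene Cpe at 226 and 361 CPM, which was at 863 and 851 CPM outside the gate. Its log2 ratio was 0.68, under 1.5-fold in 7 of the other settings. With free RNA subtracted, its STZ level came to 0 and was set to a count of 3. The log2 ratio of -5.99 in that setting is thus set by the floor.

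Few chaperone genes passed 1.5-fold, at a share near the 4.49% of all genes in the first list below. Of 17 measured endoplasmic reticulum chaperones and XBP1 targets, 15 had a log2 ratio below 0 (median -0.25), and 1, the calcium-binding chaperone gene Calr, was at least 1.5-fold lower, at 283 and 188 CPM (1.504-fold, 1.34 to 1.70), a value so near the threshold that 8 of the other settings put it under. Hspa5, the master chaperone of that compartment, was at 338 and 241 CPM. Of 15 cytosolic heat shock genes, 12 were below 0 (median -0.29) and 2 passed, Hsph1 at 36.5 and 21.0 CPM and Chordc1 at 66.5 and 39.7 CPM. With at most 10% mitochondrial UMIs both came under 1.5-fold, at log2 ratios of -0.58 and -0.57. Of 10 ATF4 targets, 3 were higher (median 0.29), beside 5.29% of all genes. Among these Nupr1, a stress-induced chromatin protein gene, was at 191 and 335 CPM, 1.75-fold higher (1.57 to 1.96), and scarce outside the gate at 8.72 and 20.8 CPM. Vldlr, a lipoprotein receptor gene, was at 12.4 and 32.8 CPM, below its 214 and 205 CPM outside the gate. The third was Cebpb, given above.

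In each list of glucose use and hormone response, at most 2 genes were higher and at most 2 lower by 1.5-fold. Over all measured genes, 5.29% were higher and 4.49% lower. Of 19 glycolysis genes, 1 was higher and 2 lower (median 0.14). The glucose transporter gene Slc2a1 was at 483 (control) and 312 CPM (STZ), 1.55-fold lower (1.41 to 1.70). It came under 1.5-fold in 4 of the other settings. Its log2 ratio was -0.54 in cells with at most 10% mitochondrial UMIs and -0.31 with free RNA subtracted. The phosphofructokinase gene Pfkl was at 167 and 104 CPM, and the hexokinase gene Hk2 at 21.5 and 34.6 CPM, below its level outside the gate. Of 8 glycogen genes, 0 passed (median -0.22). Of 13 genes that respond to glucose or to insulin through FOXO, 1 was higher and 1 lower. Txnip, a glucose-induced inhibitor of thioredoxin, was at 24.8 and 47.4 CPM, 1.91-fold higher (1.41 to 2.61), and the lower one was Igfbp5, given above. Of 6 glucocorticoid-regulated genes, 2 were higher. Tsc22d3 was at 38.1 and 62.5 CPM, and Sgk1 at 21.8 and 33.7 CPM, below its 81.6 and 78.2 CPM outside the gate.

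In the remaining lists at most 2 genes passed 1.5-fold each. Of all measured genes, 5.29% were higher and 4.49% lower, with a median log2 ratio of -0.02. Of 18 antioxidant and NRF2 target genes, 1 was higher (median 0.07), the glutathione transferase gene Gstm1 at 126 and 211 CPM. Of 21 nuclear-encoded respiratory chain genes, 20 had a log2 ratio above 0 (median 0.17) and 1 was at least 1.5-fold higher. Of 14 clock genes, 1 was higher, the repressor gene Ciart at 23.8 and 46.0 CPM. Of 7 p53 targets, Ddit4l was lower, at 41.4 and 16.0 CPM, and Phlda3 higher, at 16.3 and 25.5 CPM, turning to a log2 ratio of -0.46 in cells of 2000 to 6000 UMIs. Of 11 hypoxia and growth factor genes, 0 were higher and 2 lower. These were Vegfa and the midkine gene Mdk at 182 and 102 CPM (log2 ratio -0.28 with free RNA subtracted), while Hif1a was at 126 and 156 CPM. Of 23 Notch and fate genes, 0 were higher and 2 lower, Hes5 and Id1, and Id1 came under 1.5-fold in 14 of the other settings. In cells of at least 3000 UMIs, the log2 ratio of Hk2 was 0.18, that of Sgk1 0.46 and that of Cpe 0.53, all under 1.5-fold. Of 4 nuclear noncoding RNAs, 0 passed, with Malat1 at 85405 and 65437 CPM.

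Markers of neurons were higher in the STZ low cells and run beside all genes above. The 12 rod markers summed to 2627 CPM in control and 6512 CPM in STZ low cells, with 0 of 12 at 0 in either, against 14820 and 12715 CPM outside the gate. All 12 were at least 1.5-fold higher in STZ, as were 7 of 7 measured cone markers and 4 of 4 measured rod bipolar markers, with median log2 ratios of 1.23, 1.19 and 1.39. Gnat1, the rod transducin gene, was at 216 and 488 CPM. Drd4, a dopamine receptor gene of photoreceptors, was at 8.15 and 88.4 CPM, and at 87.0 and 267 CPM outside the gate. Cone markers summed to 448 and 1064 CPM, rod bipolar markers to 290.3 and 809.5 CPM, cone bipolar markers to 44.0 and 134 CPM (Neto1 at 0 in both), and amacrine markers to 10.1 and 28.3 CPM (Gad2, Tfap2a and Slc32a1 at 0 in control). Without the tenth of gated cells richest in neuronal markers the rod markers summed to 1617 and 2972 CPM.

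The neuronal share depended on depth. In STZ low cells neuronal markers made up a median of 1.97% of UMIs at 800 to 1500 UMIs and 0.243% at 5000 UMIs or more, and in control 0.592% and 0.157%. Of the 360 genes higher in STZ low cells, 237 (65.8%) had a higher STZ level outside the gate than in the low cells. Of the 306 lower genes, 60 (19.6%) had a higher control level outside the gate. The matching share over all measured genes is not given here, and the counts use different libraries, so they are not compared. The part of neuronal RNA, from free RNA or from doublets, in the higher genes was not tested.

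Other cell types left smaller traces. Pigment epithelium markers summed to 39.4 CPM in control and 124 CPM in STZ low cells, with Mlana at 0 in both. Haemoglobin and other red blood cell markers summed to 1.96 and 22.8 CPM, against 2.42 and 585.5 CPM outside the gate. Microglia markers summed to 27.4 and 31.9 CPM, with Csf1r at 0 in both, pericyte or smooth muscle markers to 148 and 117 CPM, and astrocyte markers to 233 and 211 CPM. Endothelial markers summed to 1501 and 1738 CPM. Of that sum Kdr gave 750.1 and 656 CPM and Flt1 717 and 1000 CPM, both VEGF receptor genes that lay lower outside the gate, at 20.9 and 26.8 CPM for Kdr and at 94.6 and 115 CPM for Flt1.

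**Figure D5:**
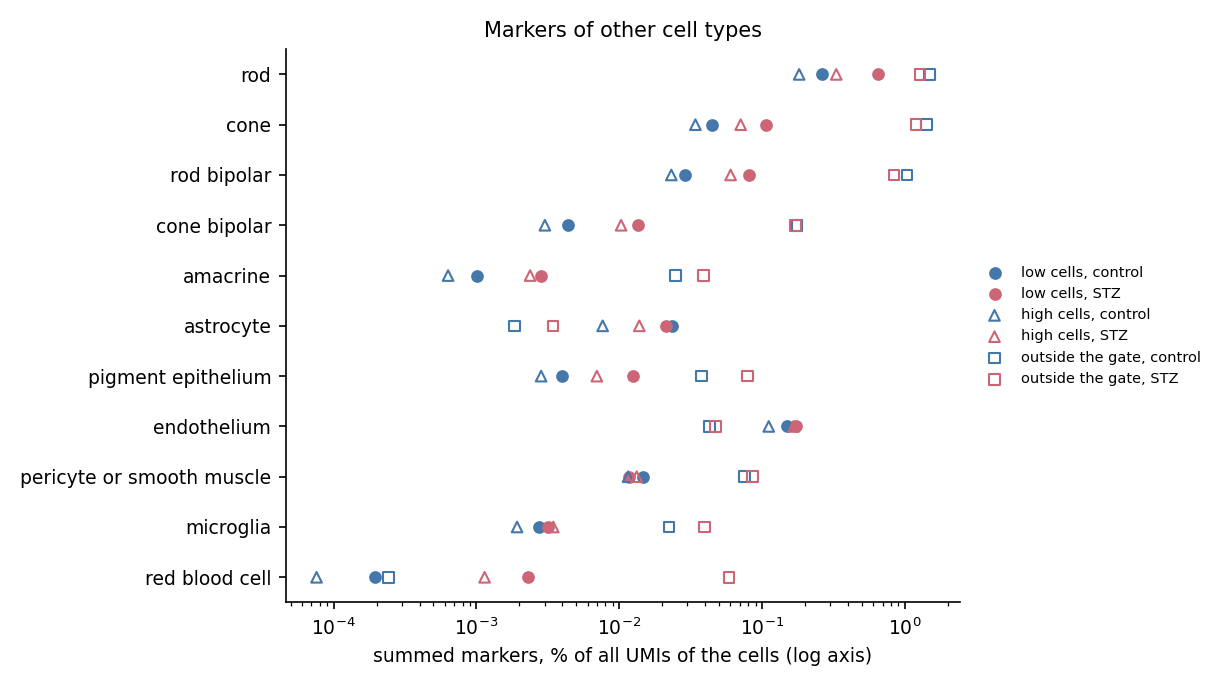
Summed UMIs of marker genes of other cell types as a percent of all UMIs (x axis, log) in low cells (circles), high cells (triangles) and kept cells outside the gate (squares), control in blue and STZ in red. Rod, cone and bipolar markers lie higher in STZ than in control low cells, and below the cells outside the gate.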

How the data were processed

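The deposited file holds whole UMI counts of 17087 genes in 19562 cells, and the endings of the cell names match the titles of the 2 libraries. Per the submitters' processing notes, Cell Ranger 3.0.1 and Seurat 3.0 were used with build mm10; settings are not given in the sources used here. The deposited counts show a filter before deposit, since no cell has over 2999 genes or under 499 UMIs and each gene occurs in at least 2 cells. No doublet caller was run and unfiltered droplets were not used here.

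Counts were summed over the low cells of each library and divided by all their UMIs (CPM). A gene was measured at a mean of at least 20 CPM over both libraries and at least 50 UMIs together, and called at 1.5-fold. A count of 0 was set to 3. Ratio intervals are exact conditional binomial and share intervals Clopper-Pearson, both at 95%. A 3-retina pool gave 1 library per group, so no p-value was computed. Python 3.11.15, numpy 2.4.6, scipy 1.17.1 and pandas 2.3.3 were used. Only the calculation of ratios and their intervals was tested on simulated counts.

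Named genes were the gate and rule genes, the 10 highest and 10 lowest STZ to control ratios and the 5 highest and 5 lowest low to high ratios among genes of at least 50 CPM in the higher library and no less than outside the gate, and up to 4 members of each list by size of ratio. Others (Gfap, Gnat1, Drd4, Kdr, Flt1, Hes1 and Sox9) were named after their values were seen, and a few genes that the rule would name are not reported here. The cells, lists and markers were chosen with earlier results of these data known. Gene positions are from GENCODE (mm10), found for 133 of 136 named genes. Alternatives varied the cell filters, gate, cut, depth, averaging, scaling, gene filter and free RNA; 3 were added after seeing the data (at least 3000 UMIs, Müller markers outside the gate at 1% or more of UMIs, and no cells with astrocyte markers).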

Additional observations from a re-analysis of the deposited data

Results flagged for a closer look

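Igfbp5, which encodes a binding protein of insulin-like growth factors, moved in opposite directions between the libraries in low and in high cells. Its log2 ratio of STZ to control was -0.679 in low cells (168 and 75 UMIs) and 1.52 in high cells (17 and 39 UMIs). The difference between these ratios was not tested. In low cells 6 cells of each library held most of its UMIs.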

How the results depend on the processing

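Counts of genes moved with the filters and the low-cell shares with the cut. The share of gated cells that were low was 54.3% in control and 44.5% in STZ with at most 10% mitochondrial UMIs, and 27.8% and 22.4% with the cut at the pooled 25th percentile. The 306 genes lower in STZ became 522 with that cut, 524 in cells of 2000 to 6000 UMIs, 536 with a mean over cells, 779 with genes measured at 5 CPM and 20 UMIs, and 1323 with free RNA subtracted. The 360 higher genes became 1078 with that gene filter and 673 with free RNA subtracted, where lower genes outnumbered higher ones. They also did with the 25th percentile cut (487 higher), at 2000 to 6000 UMIs (439 higher) and with a mean over cells (526 higher). Of the 360 and 306, 140 and 167 were called with free RNA subtracted. The metallothionein median of 1.74 was 1.65 with at most 10% mitochondrial UMIs, 1.84 at 2000 to 6000 UMIs and 2.06 with free RNA subtracted. The 104 genes higher in low than in high cells became 61 at 2000 to 6000 UMIs, 19 when centred on the median gene, 257 with free RNA subtracted and 275 with the lower gene filter, which also took the 84 lower genes to 152. With free RNA subtracted, Cpe (log2 ratio -5.99), Sgk1 (-2.68) and Zfp36 (-0.96) reversed. The STZ levels of Cpe and Sgk1 came to 0 there and were set to a count of 3, so their 2 values are set by that floor. The subtracted profile was that of kept cells outside the gate, scaled by rod markers. It can take too much from genes that those cells express. Igfbp5 reversed with at most 10% mitochondrial UMIs (0.77), at 2000 to 6000 UMIs (0.92) and without cells with astrocyte markers (0.56). Phlda3 reversed at 2000 to 6000 UMIs (-0.46). The cause was not tested. No paired analysis was possible because each group is 1 library. The pooling of 3 retinas hides differences between animals.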
